A study of Mus musculus with 2 samples.

Results

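The 48 genes described here carry cells from late G2 through mitosis: the cyclins and kinases of G2 entry, proteins that shape chromosomes, the spindle, the kinetochore, the chromosomal passenger complex, and the machinery of anaphase and cytokinesis. They were taken from a list of G2/M and mitotic genes, and all 48 were found among the 17139 genes measured in tumour endothelial cells (ECs). They fall into 11 genes of G2 entry, 4 of chromosome structure, 9 of the spindle, 9 of the kinetochore and its checkpoint, 4 of the chromosomal passenger complex, and 11 of mitotic exit and cytokinesis.

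The ECs came from Lewis lung carcinoma (LLC) tumours, a transplantable mouse lung cancer line, grown in adult c57bl/6 mice. The tumours were injected with phosphate-buffered saline (PBS) or with cGAMP, a cyclic dinucleotide that activates the innate immune sensor STING, and live CD45-/CD31+ cells were sorted 24 h later for droplet-based single-cell RNA sequencing. Each treatment was represented by 1 mouse and 1 library, so no test between treatments was possible, and treatment, mouse, sort and library cannot be told apart. All intervals below are exact 95% intervals for counting error only.

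The PBS library held 2517 cells and 92081146 UMIs (unique transcript counts), and its median cell had 29780. For cGAMP these were 1340 cells, 63366746 UMIs and 41178 UMIs in the median cell, and 1 cell barcode was shared by the libraries. Pecam1, which encodes CD31, was detected in 99.9% of cGAMP cells after thinning. This was largely set in advance, as cells were sorted for CD31 and the authors removed cell types without Pecam1. The leucocyte gene Lyz2 was detected in 4.24% of thinned PBS cells and 11.1% of thinned cGAMP cells. Summed over their marker lists, leucocyte genes (9 of 12 in the files) were at 16.7 CPM (UMIs of a gene per 1e+06 UMIs) in PBS and 48.4 CPM in cGAMP, mural or fibroblast genes at 19.2 and 11.7 CPM, and epithelial or tumour genes at 2.15 and 0.395 CPM, against 5665 and 6595 CPM for 8 endothelial genes.

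Entry into mitosis is driven by cyclin A and cyclin B bound to the kinase Cdk1, which Cdc25 phosphatases switch on and the kinase Wee1 restrains. The genes of this programme are transcribed late in the cycle, when the MuvB complex exchanges its repressors for the factors Mybl2 and Foxm1, and their promoters are known for a CHR element (cell cycle genes homology region) and for CCAAT boxes bound by NF-Y. The products are then destroyed in order by the anaphase-promoting complex (APC/C), with Cdc20 as its activator before anaphase.

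The promoters are shown for the 2 members with the largest and the 2 with the smallest cGAMP to PBS difference among those at 5 CPM or more with a RefSeq entry. Each run covers 250 bases before the gene start and 30 bases after it, on build GRCm38.p6, 5′ to 3′ along the gene. Capitals mark matches on either strand to TTTGAA or TTCGAA (CHR forms) and to CCAAT, and no match in these 4 windows overlapped another. Ccnb2 lies at chr9:70421525-70421804 (minus strand), Cdkn3 at chr14:46760291-46760570 (plus), Cdk1 at chr10:69352883-69353162 (minus) and Cks2 at chr13:51644982-51645261 (plus).
Ccnb2: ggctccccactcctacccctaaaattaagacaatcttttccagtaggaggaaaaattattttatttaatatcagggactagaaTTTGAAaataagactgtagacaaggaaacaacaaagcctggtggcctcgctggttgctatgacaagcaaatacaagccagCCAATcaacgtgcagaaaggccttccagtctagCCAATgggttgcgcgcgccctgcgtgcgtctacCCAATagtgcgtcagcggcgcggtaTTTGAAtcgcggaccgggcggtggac
Cdkn3: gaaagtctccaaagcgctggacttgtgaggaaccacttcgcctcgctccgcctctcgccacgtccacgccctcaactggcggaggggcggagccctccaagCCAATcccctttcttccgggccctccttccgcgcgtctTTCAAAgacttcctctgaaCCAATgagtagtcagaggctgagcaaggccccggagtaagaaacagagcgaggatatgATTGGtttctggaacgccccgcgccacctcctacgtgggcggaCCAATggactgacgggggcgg
Cdk1: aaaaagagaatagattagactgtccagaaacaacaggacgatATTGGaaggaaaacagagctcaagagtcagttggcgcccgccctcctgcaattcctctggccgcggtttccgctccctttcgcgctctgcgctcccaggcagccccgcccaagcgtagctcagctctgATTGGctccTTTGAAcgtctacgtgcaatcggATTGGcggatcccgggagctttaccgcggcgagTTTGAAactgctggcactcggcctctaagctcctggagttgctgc
Cks2: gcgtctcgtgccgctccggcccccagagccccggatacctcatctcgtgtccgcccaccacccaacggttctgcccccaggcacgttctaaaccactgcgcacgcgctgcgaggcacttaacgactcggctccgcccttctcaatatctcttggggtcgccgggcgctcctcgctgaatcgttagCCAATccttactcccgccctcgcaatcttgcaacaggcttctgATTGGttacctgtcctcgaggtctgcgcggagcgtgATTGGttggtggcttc
The Ccnb2 run held 2 CHR matches and 3 CCAAT matches, and the Cdk1 run also held 2 CHR matches and 3 CCAAT matches, although the pair stood at opposite ends of the measured range. Cdkn3 held 1 CHR match and 4 CCAAT matches. Cks2 held 3 CCAAT matches and these CHR letters were absent from its window. The RefSeq table gave promoters for 40 members, with 44 gene starts in all. Those without an entry were Ccna2, Cdc25c, Smc4, Tpx2, Aurkb, Incenp, Pimreg and Kif20a. Over the full windows of 250 bases before to 50 bases after the start, 34 of the 44 (77.3%) held a CHR match, against 19.2% of 32851 promoters of all genes and 14.6% of 41 promoters of S-phase genes. A CCAAT match was present in 75% of the members' promoters, 37.4% of all promoters and 58.5% of those of S-phase genes. Both motifs were present in 63.6% of the members' promoters and 7.52% of all promoters. The 31 members with a CHR match had a median log2 ratio (cGAMP over PBS) of -0.85 in all ECs, and the 9 without had -0.81.

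Over all ECs, every G2 and mitosis gene was at a lower level in the cGAMP library. Of the 48 members, 47 reached 5 CPM in at least 1 library. Of these, 40 were at least 1.5-fold lower in cGAMP, while 7.41% of the 9509 genes at that level were. Of those 9509 genes, 5669 were lower by any amount. The median log2 ratio of the members was -0.82, beside -0.08 for all genes, and the range ran from -1.38 for Ccnb2 to -0.19 for Cdk1. The member below 5 CPM was Cdc25c, at 4.44 CPM in PBS and 2.0 CPM in cGAMP. Added together, the members made up 2410 CPM in PBS and 1418 CPM in cGAMP. For all 48, the counting interval of the ratio lay below 0, and 12 of the 47 were at least 2-fold lower. No share over all genes was taken at 2-fold. These levels mix how many cells express a gene with how much each cell holds, and the gated cells further below separate the 2 in part.

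**Figure D1:**
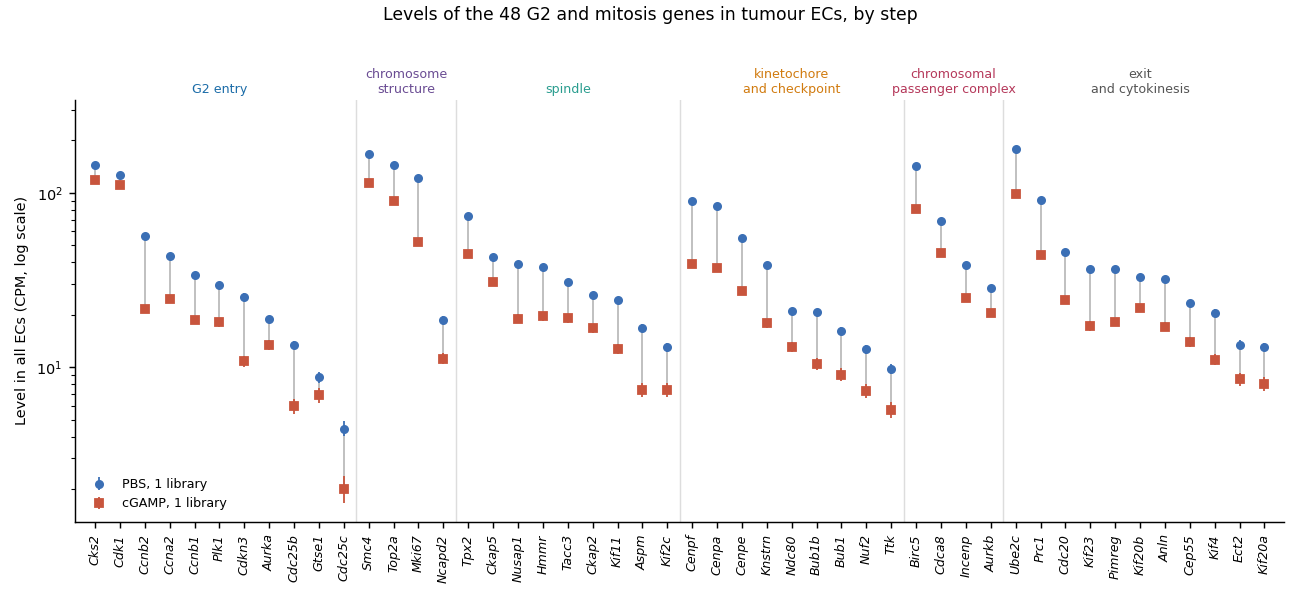
Level of each member in all ECs of the PBS library (circles) and the cGAMP library (squares), in CPM on a log axis, with exact 95% Poisson intervals, ordered by step. Each square lies below its circle, with the narrowest gap at Cdk1 (126 and 111 CPM) and the widest at Ccnb2 (56.2 and 21.6 CPM).

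Genes of G2 entry spanned the whole range of the list. Ccnb2, cyclin B2, was at 56.2 CPM (interval 54.7 to 57.8) in PBS and 21.6 CPM (20.4 to 22.7) in cGAMP, a log2 ratio of -1.38 (-1.47 to -1.30). Cdk1, the kinase that cyclin B activates, was at 126 CPM in PBS and 111 CPM in cGAMP, a log2 ratio of -0.19 (-0.23 to -0.15). Cyclin and kinase thus differed between the libraries by unlike amounts. Cks2, a small subunit that binds Cdk1, was at 145 and 118 CPM, a log2 ratio of -0.29 (-0.33 to -0.25). Cdkn3, a phosphatase that acts on cyclin-dependent kinases, stood with Ccnb2, at 25.4 CPM in PBS and 10.8 CPM in cGAMP. The phosphatase gene Cdc25b was at 13.4 and 5.95 CPM. The cyclins Ccna2 and Ccnb1, at log2 ratios of -0.82 and -0.86, and the kinase Plk1, at -0.71, stood in the middle, while the kinase Aurka (-0.49) and Gtse1, a microtubule-binding protein that restrains p53 in G2 (-0.34), stood closer to Cdk1. Of the 11 genes of the step, 7 were at least 1.5-fold lower, a count that includes Cdc25c. Ccnb1, Ccnb2 and Kif4, a motor gene of the exit step, each have an annotated pseudogene that was not among the genes measured. Any part of these copies in the counts was not tested.

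Of the genes that shape chromosomes, Mki67 differed most. Its product Ki-67 coats mitotic chromosomes and is the usual marker of cycling cells. It was at 122 CPM (120 to 124) in PBS and 52.4 CPM (50.6 to 54.2) in cGAMP, a log2 ratio of -1.22 (-1.28 to -1.16). Top2a, the topoisomerase that untangles sister chromatids, was at 144 and 89.6 CPM, a log2 ratio of -0.68 (-0.73 to -0.64). Smc4, the core subunit of condensin, was at 166 and 115 CPM (-0.54, -0.58 to -0.50). Ncapd2, another condensin subunit, had a log2 ratio of -0.74. These 2 common markers of cycling cells, Mki67 and Top2a, differed by unequal amounts in the same libraries. Their counting intervals did not overlap, but these leave out the spread between cells.

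Spindle genes were lower in cGAMP, with a median log2 ratio of -0.82 and 8 of 9 at least 1.5-fold lower. Tpx2, which nucleates spindle microtubules and activates Aurora A, was at 73.7 CPM in PBS and 44.8 CPM in cGAMP. Nusap1, a protein that bundles spindle microtubules, was at 39.2 and 19.0 CPM, a log2 ratio of -1.05 (-1.14 to -0.95). Aspm, which organises spindle poles, was at 16.7 and 7.43 CPM, the lowest ratio of the step at -1.17 (-1.32 to -1.02). Ckap5, a microtubule polymerase also used outside mitosis, was the spindle gene nearest to PBS, at 42.7 and 31.0 CPM and a log2 ratio of -0.46 (-0.54 to -0.38). The motor Kif11 (-0.94), the depolymerase Kif2c (-0.82), Hmmr (-0.95), Tacc3 (-0.70) and Ckap2 (-0.62) lay between.

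The kinetochore and checkpoint step had the lowest median of the 6 steps, -0.98, and all 9 of its genes were at least 1.5-fold lower. Cenpf, a large kinetochore protein that builds up in G2, was at 89.8 CPM (87.8 to 91.7) in PBS and 39.0 CPM (37.5 to 40.5) in cGAMP, a log2 ratio of -1.20 (-1.27 to -1.14). Cenpa, the histone H3 variant of centromeres, was at 84.2 and 37.2 CPM, a log2 ratio of -1.18 (-1.25 to -1.11). Cenpe, the motor that brings chromosomes to the spindle equator, was at 55.1 and 27.4 CPM (-1.01, -1.09 to -0.93). Knstrn, which links kinetochores to spindle tips, had a log2 ratio of -1.11. The Ndc80 complex, which grips microtubules, stood nearer to PBS, with Ndc80 at 20.9 and 13.1 CPM (-0.68, -0.80 to -0.56) and Nuf2 at -0.80. The checkpoint kinases Bub1, Bub1b and Ttk were at -0.83, -0.98 and -0.77.

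The chromosomal passenger complex had the median nearest to PBS, -0.62. Aurkb, its kinase, was at 28.4 CPM (27.4 to 29.6) in PBS and 20.5 CPM (19.4 to 21.6) in cGAMP, a log2 ratio of -0.47 (-0.57 to -0.38). The scaffold Incenp was at 38.6 and 25 CPM (-0.63, -0.71 to -0.54), and Cdca8, which encodes borealin, at 69.3 and 45.3 CPM (-0.61, -0.68 to -0.55). Birc5, survivin, was at 142 and 81.0 CPM (-0.81, -0.86 to -0.76). Survivin thus had the lowest ratio within a complex whose proteins work as 1 unit, and the intervals of Birc5 and Aurkb did not overlap.

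Genes of exit and cytokinesis were all at least 1.5-fold lower, 11 of 11, with a median log2 ratio of -0.89. Ube2c, the ubiquitin-conjugating enzyme of the APC/C, was at 179 CPM (176 to 182) in PBS and 99.1 CPM (96.7 to 102) in cGAMP. Cdc20, the activator of the APC/C, was at 46.0 and 24.1 CPM, a log2 ratio of -0.93 (-1.02 to -0.85). Prc1, which bundles the microtubules of the central spindle, was at 90.8 and 44.0 CPM (-1.05, -1.11 to -0.98). Kif23, the motor of centralspindlin, was at 36.6 and 17.2 CPM and had the lowest ratio of the step, -1.09 (-1.19 to -0.99). Kif20b had the ratio nearest to PBS, at 32.8 and 21.8 CPM (-0.59, -0.68 to -0.50). The remaining motors Kif4 (-0.89) and Kif20a (-0.70), the contractile ring genes Anln (-0.92) and Ect2 (-0.66), the abscission gene Cep55 (-0.73) and Pimreg (-1.0) lay within that range.

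To set cell numbers apart from levels per cell, cells were gated on other genes. Each cell was thinned to 10000 UMIs, which left out 182 PBS and 56 cGAMP cells with fewer, and UMIs were summed over 45 S-phase genes and over 39 further G2/M genes, none of them members. Cells with a G2/M sum of at least 7 UMIs were called G2/M-gated, other cells with an S sum of at least 12 UMIs S-gated, and the rest ungated, the cuts being set on both libraries together. A gate is a range of a score, and 249 PBS and 101 cGAMP cells lay within 2 UMIs of the G2/M cut. The gates are not separate phases. Of the G2/M-gated cells, 557 of 671 in PBS and 234 of 246 in cGAMP also reached the S cut. The gene Hmgb2 alone gave 361 of the 1028 CPM of the G2/M list in PBS and 270 of 680 CPM in cGAMP.

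**Figure D2:**
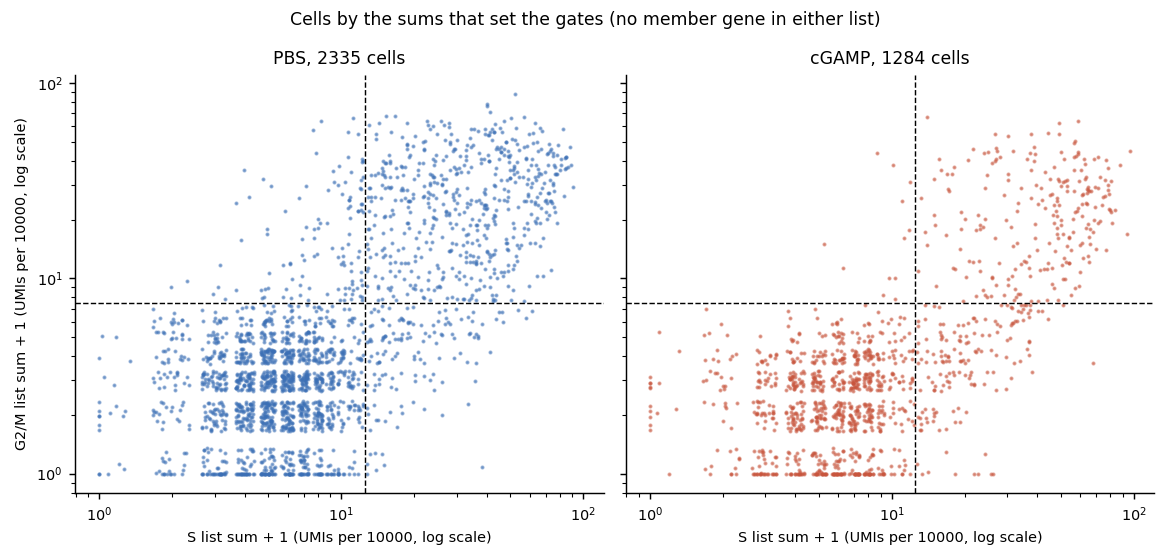
S list sum (horizontal) against G2/M list sum (vertical) for each thinned cell, both plus 1 on log axes and with a small jitter, for 2335 PBS cells and 1284 cGAMP cells, with the cuts as dashed lines. The upper left field, with high G2/M and low S sums, holds 114 PBS cells and 12 cGAMP cells.

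G2/M-gated cells were 671 of 2335 (28.7%, interval 26.9% to 30.6%) in PBS and 246 of 1284 (19.2%, 17% to 21.4%) in cGAMP. S-gated cells were 6.04% (5.11% to 7.08%) in PBS and 12.5% (10.8% to 14.5%) in cGAMP. The intervals did not overlap for either gate, and the gates differed in opposite directions. Cells above the S cut, whatever their G2/M sum, were 29.9% in PBS and 30.8% in cGAMP, with overlapping intervals. The G2/M-gated cells were then split at the S cut, a split chosen after these values were seen. Those also above the S cut were 23.9% of PBS cells (22.1% to 25.6%) and 18.2% of cGAMP cells (16.1% to 20.4%). Those below it, with G2/M but few S transcripts, were 114 PBS cells (4.88%, 4.04% to 5.84%) and 12 cGAMP cells (0.935%, 0.484% to 1.63%). The S cut was the same for both libraries, but S list genes stood higher in the G2/M-gated cells of cGAMP. There 43 of 45 were higher, against 3916 of 9516 genes, with a median log2 ratio of 0.47. The part of this difference in the number of cells below the cut was not tested.

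**Figure D3:**
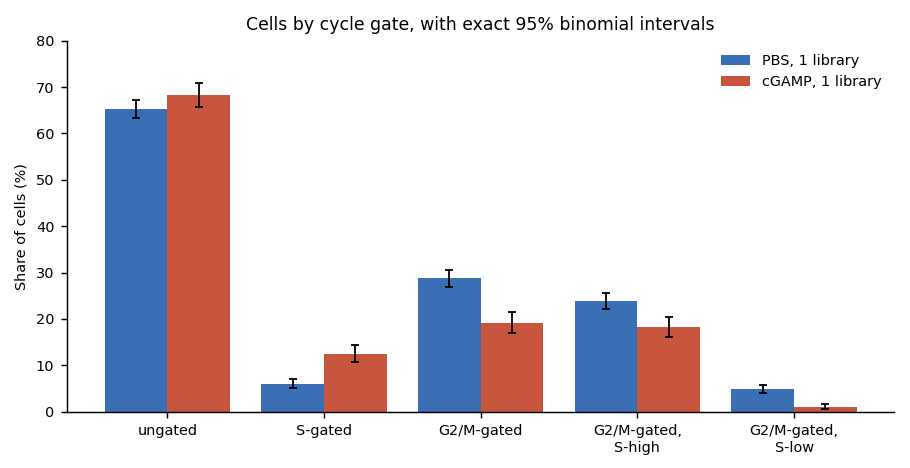
Share of thinned cells in each gate (vertical axis, percent) for the PBS and cGAMP libraries, with exact 95% binomial intervals as bars; S-high and S-low split the G2/M-gated cells at the S cut. The G2/M-gated, S-low class has the largest relative gap, 4.88% and 0.935%.

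In proliferating cells, meaning those in either gate, all 48 members were lower in cGAMP, against 5715 of 9497 genes. There 29 of 48 were at least 1.5-fold lower, against 6.38% of genes. Within G2/M-gated cells the gap was smaller: 46 of 48 members were lower, against 5600 of 9516 genes. Of the members, 8 of 48 were at least 1.5-fold lower, against 6.55% of genes. Their median log2 ratio was -0.30 beside -0.07 for all genes. With each gate weighted alike in both libraries, the median over all ECs was -0.32, beside -0.07 for all genes. Of the members, 9 of 47 were then at least 1.5-fold lower, and no share over all genes was taken. Under this weighting Cdk1 had a log2 ratio of 0.20, the other direction, and Aurkb 0.014, within counting error of 0. The G2/M-gated cells of cGAMP were also deeper, at a median of 56717 UMIs per cell against 41676 in PBS. Their median share of mitochondrial UMIs was 2.90%, against 4.29% in PBS, and in ungated cells it was 2.88% and 4.59%. Among cells with at most 5% mitochondrial UMIs, G2/M-gated cells were 31.9% in PBS and 19.4% in cGAMP, and the part of the mitochondrial difference in the members' ratios was not tested.

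Individual members separated within the G2/M-gated cells. Ccnb2 was at 123 CPM in PBS and 74.1 CPM in cGAMP, a log2 ratio of -0.73 (-0.83 to -0.64). Cdc25b was at 30.6 and 16.9 CPM, the lowest ratio at -0.86 (-1.06 to -0.66). Mki67 was at 320 and 203 CPM (-0.65, -0.71 to -0.60), and Cenpf at 239 and 154 CPM (-0.64, -0.70 to -0.57). These G2/M-gated cells of cGAMP thus held less cyclin B2, Ki-67 and CENP-F message per UMI than those of PBS. Cdk1 stood the other way, at 306 CPM (300 to 312) in PBS and 358 CPM (349 to 367) in cGAMP, a log2 ratio of 0.23 (0.18 to 0.27). Aurkb was at 74.1 and 76.0 CPM, with an interval that included 0 (-0.06 to 0.14), and Aurka at 48 and 47.3 CPM likewise. By step, the median was lowest for kinetochore and checkpoint genes (-0.48) and nearest to 0 for the passenger complex (-0.16).

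Outside the G2/M gate, levels were low and the members divided more sharply. With no minimum level, 44 of 48 members were lower in ungated cGAMP cells, against 8887 of the 15530 genes with UMIs in both libraries. Of the members, 34 of 48 were at least 1.5-fold lower, against 14.9% of those genes. Of the 15 members at 5 CPM or more, 9 were, against 8.35% of genes at that level. Mki67 was at 8.35 CPM (7.58 to 9.17) in PBS and 1.40 CPM (1.05 to 1.82) in cGAMP, a log2 ratio of -2.58 (-3.02 to -2.17). Cenpa was at 18.0 and 3.95 CPM (-2.18, -2.44 to -1.93), Birc5 at 14.3 and 3.49 CPM (-2.04, -2.31 to -1.77), and Ccnb2 at 16.5 and 4.06 CPM (-2.02, -2.28 to -1.78). In contrast, Cdk1 was at 19.1 and 20.2 CPM and Cks2 at 54.3 and 56.9 CPM, both with intervals that included 0. With both cuts 1.5 times lower, so that fewer cells near a gate were counted as ungated, Mki67 had a log2 ratio of -2.14, Cenpa -2.14, Ccnb2 -1.95 and Cdk1 0.08. Leucocyte markers in ungated cells summed to 15.4 CPM in PBS and 56.9 CPM in cGAMP, and their part in these ratios was not tested.

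Transcripts free in the droplets can place mitotic UMIs in cells that do not make them, and their part in the ungated levels was not tested. In PBS the ungated level as a share of the all-EC level ranged from 2.47% for Nusap1 and 6.84% for Mki67 to 37.6% for Cks2 and 59.0% for Ckap5. In cGAMP the range ran from 1.63% for Kif11 to 72.7% for Ckap5, and Mki67 was at 2.66%.

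S-gated cells, few in number and low in these genes, gave wider intervals. With no minimum level, 37 of 48 members were lower in cGAMP, against 7937 of the 13723 genes with a UMI in both libraries. Of the members, 19 of 48 were at least 1.5-fold lower, against 14.3% of those genes. Of the 31 members at 5 CPM or more, 13 were, against 8.05% of genes. Cdkn3 was at 11.3 CPM in PBS and 1.61 CPM in cGAMP (-2.81, -3.76 to -1.97), Ccnb2 at 33.0 and 5.40 CPM (-2.61, -3.10 to -2.15), and Cenpa at 35.7 and 9.19 CPM (-1.96, -2.35 to -1.58). Birc5 was at 38 and 13.4 CPM. Cks2 was higher in cGAMP, at 91.0 and 104 CPM (0.19, 0.04 to 0.35), while Cdk1, Smc4 and Top2a had intervals that included 0. Ccnb2, Cenpa and Birc5 were thus at least 2-fold lower both here and in ungated cells, classes that come from the same libraries.

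**Figure D4:**
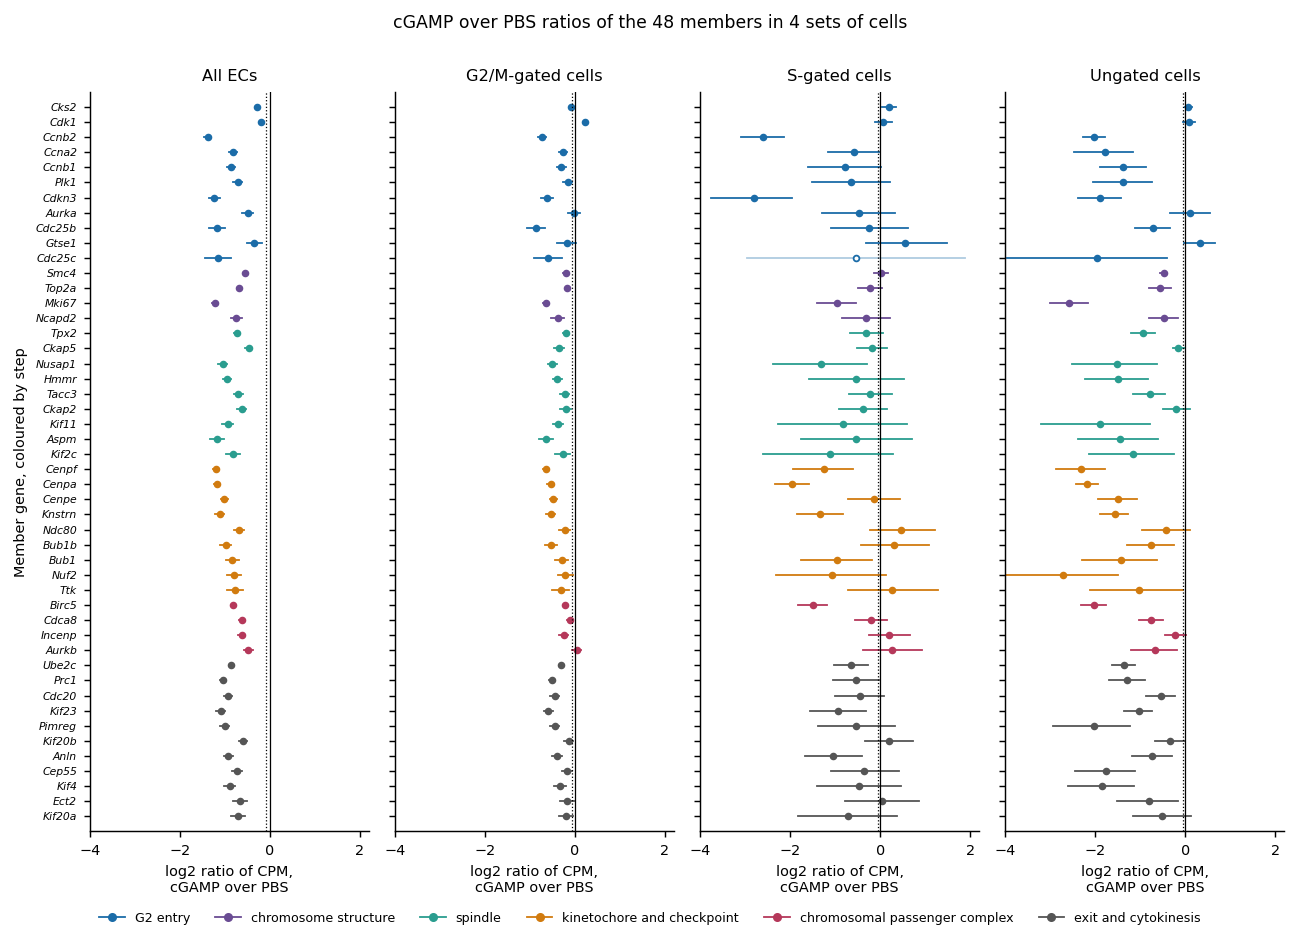
Log2 ratio of CPM, cGAMP over PBS (horizontal axis), for each member (rows, coloured by step) in all ECs, G2/M-gated, S-gated and ungated cells, with exact 95% intervals as lines, clipped at -4; the dotted line is the median of all genes and the open symbol marks fewer than 20 UMIs. Cdk1 and Cks2 lie at or above -0.29 in each panel, whereas Ccnb2 runs from -0.73 in G2/M-gated cells to -2.61 in S-gated cells.

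The PBS library alone gave an order of the members within the G2/M gate, by the level in cells below the S cut over that in cells above it. S-phase messages decline as cells pass through G2, so cells below the S cut may be the later ones, but this placing was not tested. Ccnb2 was at 111 CPM in the 557 PBS cells above the cut and 197 CPM in the 114 below it, a log2 ratio of 0.83 (0.72 to 0.93). Cenpa followed, at 182 and 288 CPM (0.66, 0.57 to 0.74), then Cdkn3 (0.58), Knstrn (0.53), Cdc20 (0.47) and Cenpf (0.35). At the other end were Top2a, at 414 and 164 CPM (-1.34, -1.44 to -1.23), Incenp (-1.03), Aurkb (-1.02), Cdk1 (-1.0) and Ndc80 (-0.93). In all, 16 members were higher in cells below the cut and 32 lower.

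Members that stood higher in the S-low PBS cells tended to have lower cGAMP to PBS ratios. Across the 48 genes, the PBS order and the all-EC ratio had Pearson's r of -0.49 and Spearman's rho of -0.42 (PBS cells, the S-low ones included, enter both measures, and genes are not independent, so these values are a description). The 16 members higher in the S-low cells had a median all-EC log2 ratio of -0.98, and the other 32 had -0.76. With the cGAMP to PBS ratio taken only in G2/M-gated cells above the S cut, r was -0.36 and rho -0.26, and these medians were -0.47 and -0.32. Mki67 departed from this order, with a PBS log2 ratio of -0.58 and an all-EC ratio of -1.22. Within G2/M-gated cells above the S cut, 47 of 48 members were lower in cGAMP. Among them was Ccnb2 at 111 and 67.9 CPM (-0.71). No share over all genes was taken above or below the cut, and in the whole G2/M gate 5600 of 9516 genes were lower. Below the cut, 15 of 48 members were lower in the 12 cGAMP cells than in the 114 PBS cells, and the counting interval of the ratio lay above 0 for 16 members and below 0 for 3. Ccnb2 was at 197 CPM in PBS and 232 CPM in cGAMP there, and Cenpa at 288 and 400 CPM, the cGAMP levels resting on 135 and 233 UMIs.

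**Figure D5:**
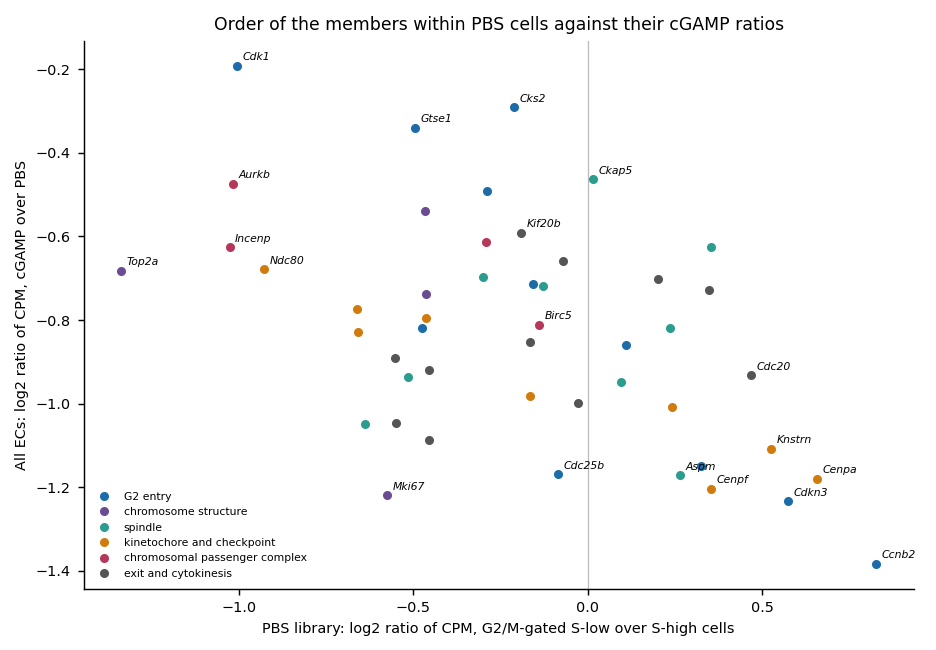
Each point is a member, coloured by step: horizontal axis, log2 ratio of its CPM in S-low over S-high G2/M-gated cells of the PBS library; vertical axis, its log2 ratio of CPM in all ECs, cGAMP over PBS. Ccnb2 (0.83 and -1.38) lies at the lower right and Cdk1 (-1.0 and -0.19) at the upper left.

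Counted per cell at 10000 UMIs, the median cell held transcripts of 3 of the 48 members in PBS and 2 in cGAMP. Cells with at least 24 members were 15.4% (13.9% to 16.9%) in PBS and 7.71% (6.31% to 9.31%) in cGAMP. In G2/M-gated cells, the median was 25 members in PBS and 21 in cGAMP, and the mean was 61.3 and 49.0 member UMIs per cell. By gene, cells with an Mki67 UMI were 27.4% (25.6% to 29.3%) in PBS and 14.8% (12.9% to 16.9%) in cGAMP, beside 5.98% and 1.03% of ungated cells. Cells with a Ccnb2 UMI were 24.9% (23.2% to 26.7%) and 9.74% (8.17% to 11.5%), beside 9.72% and 2.39% of ungated cells. For Cdk1 the shares were 35.2% (33.3% to 37.2%) and 33.5% (30.9% to 36.1%), with overlapping intervals, and for Top2a 27.1% (25.3% to 28.9%) and 21.7% (19.5% to 24.1%). Without thinning, the shares were 36.8% and 22.9% for Mki67, 35% and 18.6% for Ccnb2, 56.3% and 61.9% for Cdk1, and 38.8% and 35.4% for Top2a, at unequal depths in the 2 libraries.

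Other genes of the cycle placed the members' ratios in context. The 45 S-phase genes had a median log2 ratio of 0.14 in all ECs, with 33 higher in cGAMP and 12 lower. Of these, 0 were at least 1.5-fold lower, against 7.41% of genes. Among them, the replication licensing gene Cdc6 was at 8.97 CPM in PBS and 12.7 CPM in cGAMP, and Dscc1 at 3.92 and 5.92 CPM, whereas thymidine kinase Tk1 was lower, at 37.7 and 25.6 CPM. The G2/M genes that are not members were lower throughout, 35 of 35 at 5 CPM or more. Of these, 25 were at least 1.5-fold lower, against 7.41% of genes. Gas2l3 (11.8 and 4.02 CPM), Sapcd2 (6.97 and 3.0 CPM) and Iqgap3 (11.2 and 5.24 CPM) had the lowest ratios.

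Among the regulators of the programme, 29 were at 5 CPM or more, and their median log2 ratio was -0.21. Of these, 6 were at least 1.5-fold lower, against 7.41% of genes, and 2 at least 1.5-fold higher, against 4.53% of genes. Foxm1, which drives late cell cycle genes, was at 17.3 CPM in PBS and 9.23 CPM in cGAMP (-0.91, -1.05 to -0.77). Its partner in the programme Mybl2 was at 7.86 and 8.65 CPM (0.14, -0.03 to 0.30). Foxm1 thus stood with the members and Mybl2 with the S-phase genes. The inhibitory kinase Wee1 was at 16.7 and 12.5 CPM (-0.42), Gadd45a, a stress gene that can hold cells in G2, at 23.3 and 12.2 CPM, and E2f2 at 5.81 and 2.92 CPM. Cdkn1a, which encodes the inhibitor p21, was higher in cGAMP, at 241 and 389 CPM (0.69, 0.66 to 0.72), and cyclin D2 (Ccnd2) at 21.9 and 55.8 CPM (1.35, 1.27 to 1.43). The list's other inhibitors of cyclin-dependent kinases went the other way in all ECs. Cdkn1b, Cdkn1c and Cdkn2c had log2 ratios of -0.66, -0.62 and -0.61, each at least 1.5-fold lower in cGAMP. In G2/M-gated cells Cdkn1a was at 234 and 372 CPM.

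Subunits and partners of the APC/C, which act through the same mitosis but are mostly made throughout the cycle, had a median log2 ratio of -0.14, and 1 of 23 was at least 1.5-fold lower, against 7.41% of genes. That gene was separase, Espl1, at 5.44 and 3.57 CPM. Anapc2 was at 43.3 and 31.4 CPM, and securin, Pttg1, was higher in cGAMP, at 40.3 and 55.6 CPM. In G2/M-gated cells Pttg1 was at 39.8 and 41.9 CPM. It was at 34.5 and 49.5 CPM in S-gated cells and at 41.3 and 62.4 CPM in ungated cells. Cdc20 and Ube2c, members that serve the same complex, were at -0.93 and -0.85.

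Other programmes differed between the same cells. In G2/M-gated cells, 15 of 16 interferon genes were at least 1.5-fold higher in cGAMP, against 4.32% of genes, with a median log2 ratio of 1.54. Tip-like EC genes summed to 1391 CPM in PBS and 842 CPM in cGAMP in these cells, and stalk-like EC genes to 647 and 1087 CPM. Both lists are genes the study shows for its clusters of the same samples. The part of these differences in the members' ratios was not tested.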

How the data were processed

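Single-cell RNA sequencing of sorted LLC tumour ECs was analysed from 1 PBS and 1 cGAMP library. Per the submitters' processing notes, reads were processed with Cell Ranger 3.0.0 and Seurat 3.1.1 on mm10. The labels name version 2 of the 3′ kit and the methods version 3. The values deposited by the authors are the natural log of 1 plus UMIs scaled to 10000 per cell, after the authors' filters on cells. As the design had assumed UMI counts, the values were turned back into UMIs, and 100% were whole numbers within 0.01. No other column of per-sample values was present. Doublets were not called here.

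UMIs were summed per library and gate, as CPM, with Python 3.11.15, numpy 2.4.6 and scipy 1.17.1, and a minimum of 5 CPM in either library where stated. Ratios have exact conditional binomial intervals, levels exact Poisson and shares Clopper-Pearson intervals, which cover counting error only. Cell thinning used a fixed seed, and the gate cuts are Otsu's thresholds of log2(1 + sum). The procedures were tested on simulated data. Alternatives changed the scaling, minimum level, fold, thinning, gate cuts and cells included. Promoters are from RefSeq (GRCm38.p6), pseudogenes from GENCODE. Named genes are the 3 highest members of each step and those with its highest and lowest ratio. Of each other list they are the 3 largest ratios, with Foxm1, Mybl2, Wee1 and Cdkn1a always named. Cdkn1b, Cdkn1c and Cdkn2c are named beside Cdkn1a, and Hmgb2 for its part of the G2/M list. Other members are named where they stand against their step. The members and lists were chosen with earlier results of these data known.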

Additional observations from a re-analysis of the deposited data

Results flagged for a closer look

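Cks2, the Cdk1-binding subunit, stood out because its cGAMP to PBS ratio had opposite signs in 2 classes of cells, each with a counting interval that excluded 0: the log2 ratio was 0.19 (0.04 to 0.35) in S-gated cells and -0.085 (-0.14 to -0.03) in G2/M-gated cells. The median of all genes was -0.05 in S-gated cells and -0.07 in G2/M-gated cells. In G2/M-gated cells it lay inside the interval of Cks2, so Cks2 stood with the average gene there. With 1 library per treatment the difference between the classes was not tested.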

How the results depend on the processing

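With 1 library per treatment, no replicate could be left out, and counting intervals are wider for the rarer genes, such as Cdc25c. No paired analysis was possible because the treatments share no replicate. The median log2 ratio of the members over all ECs, -0.82, was -0.94 in cells with at most 5% mitochondrial UMIs and -0.32 with each gate weighted alike. The count of members at least 1.5-fold lower, 40, was 9 with gates weighted alike and 12 at a 2-fold limit. Shares over all genes were not taken for those settings. The S-gated share, 6.50 percentage points higher in cGAMP, was 4.14 points higher with cuts 1.5 times higher. The share of cells with any member UMI was 5.05 points lower in cGAMP when thinned (94.7% and 89.6%) and 0.85 points higher without thinning, which keeps the greater depth of the cGAMP cells. For the 23 named members over all ECs, under the alternatives that can move the ratio of 1 gene, 64 values moved within counting error and 72 by more in the same direction. With gates weighted alike, Cdk1 (0.20) changed direction, and Aurkb was at 0.014, within counting error of 0. The split of G2/M-gated cells at the S cut, and the alternatives for it and for ungated cells, were chosen after seeing the data; its 6 alternatives moved the gap of 3.95 points by less than its counting error.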
